A study of Homo sapiens with 6 samples.

Results

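The 2 arrays that carry replicate number 1, IsO 1 and Control 1, were set against the other 4 of the 6 arrays, which are IsO 2, IsO 3, Control 2 and Control 3. They were chosen by replicate number because earlier work on these intensities had found that same-numbered arrays deviate together, so every difference between replicate 1 and replicates 2 and 3 is given below as a description and is not tested. All arrays hold RNA of cells made from H9, an established human embryonic stem cell line. Floating aggregates of both groups received 5 µM dorsomorphin, a BMP receptor inhibitor, and 10 µM SB431542, an inhibitor of activin and TGF-beta receptors, for 4 days, and were then plated on Matrigel and grown for another 5 days. The IsO group, named for the isthmic organizer, additionally received 100 ng/ml FGF8 and the GSK3 inhibitor CHIR99021, which switches on the Wnt pathway, in a range of 0 to 1.2 µM, and the control group is described without these. The labels do not give the CHIR99021 concentration of the arrayed cells, nor whether arrays of 1 group go back to different cultures. They also give no culture date, extraction, labelling, hybridisation or chip for any array, so the biological and technical conditions that the replicate 1 arrays may share cannot be told apart. P-values therefore cover no more than the spread among these 6 samples, part of which may be technical.

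A gene expression array reads the amount of labelled RNA that binds to probes for each gene. Cultures of neuralised stem cells usually hold a mixture: dividing neural progenitors, young neurons, and at times neural crest, the migratory cells that leave the dorsal edge of the neural tube and form Schwann cells, melanocytes and sensory neurons. The level of a gene in such a mixture depends on how many cells of each type were harvested and on how much RNA each cell holds, and fewer cells of a type cannot be told apart from less RNA per cell. The deposited table holds a linear intensity and a detection p-value for each of 34692 rows, 1 per gene name. The 14548 rows detected at p below 0.05 on 3 or more of the 6 arrays were used. Levels below are log2 intensities after background correction and quantile normalisation, and a difference is the replicate 1 array minus the mean of arrays 2 and 3 of its own group, averaged over both groups, with its standard error from a linear model with the group as covariate (n = 6 arrays). A row is called shared where the replicate 1 array lay above, or below, both other arrays in both groups and the mean difference was at least 1 in size, which is 2-fold.

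The furthest rows carry their sequences here as a description, and no comparison of the ends is drawn from them. CHCHD2, a small protein of mitochondria and nucleus, had the highest difference, and LRRC61, a leucine-rich repeat protein, the lowest. Their RefSeq promoter windows on GRCh38.p14 run from 250 bases before to 50 bases after the start, 5′ to 3′ along the gene's strand, with CG dinucleotides in capitals. The CHCHD2 window lies at chr7:56106427-56106726 on the minus strand and holds 26 CG dinucleotides. That of LRRC61 lies at chr7:150323105-150323404 on the plus strand and holds 32.
CHCHD2: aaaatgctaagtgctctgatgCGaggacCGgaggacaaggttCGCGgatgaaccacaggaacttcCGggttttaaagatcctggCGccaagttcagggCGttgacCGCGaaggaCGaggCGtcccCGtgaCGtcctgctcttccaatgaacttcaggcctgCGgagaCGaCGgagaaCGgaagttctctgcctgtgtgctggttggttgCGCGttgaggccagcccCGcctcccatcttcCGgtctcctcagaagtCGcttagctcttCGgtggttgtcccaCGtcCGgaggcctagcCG
LRRC61: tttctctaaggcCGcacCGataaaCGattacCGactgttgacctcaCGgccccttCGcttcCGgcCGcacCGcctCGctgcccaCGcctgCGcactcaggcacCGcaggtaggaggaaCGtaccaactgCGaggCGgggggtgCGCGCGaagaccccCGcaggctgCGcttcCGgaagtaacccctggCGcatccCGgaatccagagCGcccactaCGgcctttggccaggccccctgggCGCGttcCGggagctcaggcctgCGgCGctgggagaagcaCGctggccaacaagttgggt
Among rows named for microRNAs, MIR25 and MIR92A2 were the lowest. Their mature 3p microRNAs, from RefSeq, are printed with the seed, bases 2 to 8, in capitals. It is the same in both.
hsa-miR-25-3p: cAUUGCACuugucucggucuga
hsa-miR-92a-3p: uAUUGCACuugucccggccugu

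The IsO label was checked with the engrailed homeobox genes EN1 and EN2, which the tissue around the isthmus expresses. EN1 was at 9.76, 10.61 and 10.68 on IsO 1, 2 and 3, EN2 at 8.52, 9.25 and 9.52, and neither was above background on a control array. Replicate 1 against replicates 2 and 3 separated the arrays more than treatment did, while replicates 2 and 3 were closer to each other within a group than same-numbered arrays were across groups. Over the 14548 rows, IsO 1 correlated with Control 1 at r = 0.974, although one was treated and the other not. Within its own group IsO 1 correlated at 0.955 with IsO 2 and at 0.926 with IsO 3, and Control 1 at 0.947 with Control 2 and at 0.953 with Control 3. Arrays 2 and 3 of a group were closer, at 0.986 in the IsO group and 0.989 in the control group. These correlations run across genes, which are not independent replicates. The replicate 1 split took up 56.6% of the sum of squares around the row means, against 28.3% for IsO against control and 4.79% for replicate 2 against 3. It was the largest of the 5 terms in 8768 rows (60.3%), and the treatment in 3351 rows (23%). Median intensities on the replicate 1 arrays were 153 for IsO 1 and 144 for Control 1, against 146 to 157 on the other arrays, and 15232 and 14291 rows were detected there, against 13999 to 14464.

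The same rows differed in both groups. In the IsO group 2623 rows (18%) lay at least 1 log2 unit apart between array 1 and the mean of arrays 2 and 3, and in the control group 2438 rows (16.8%). Of these, 1735 rows did so in both groups and in the same direction, which is 66.1% of the IsO rows and 71.2% of the control rows, and 1 row did so in opposite directions. Across rows the difference in the IsO group correlated with that in the control group at r = 0.868 (Spearman 0.784), where each value shares its array with all other rows of its group. The scatter of both differences shows an elongated cloud along the diagonal.

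**Figure D1:**
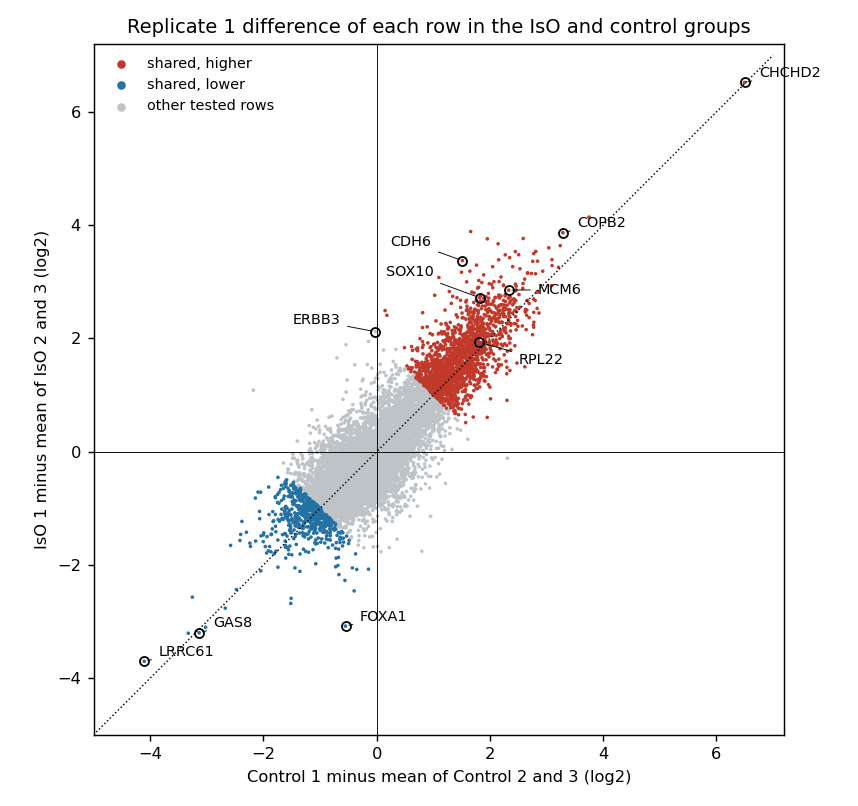
Each point is 1 of the 14548 rows, with the IsO 1 minus mean of IsO 2 and 3 difference on the vertical axis and the Control 1 minus mean of Control 2 and 3 difference on the horizontal axis, both in log2 units; red and blue points are the 1775 shared higher and 573 shared lower rows. CHCHD2 sits at 6.52 in the IsO group and 6.50 in the control group, LRRC61 at -3.70 and -4.10, and FOXA1 lies off the dotted line of equal differences.

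By the shared rule, 1775 rows (12.2%) were higher and 573 rows (3.94%) lower on the replicate 1 arrays. Of these 2348 shared rows 75.6% were on the higher side. That split depends on scaling, at 89.9% without background correction, 89.2% with median scaling and 94.3% with cyclic loess. Quantile normalisation left the median row at -0.20, median scaling at -0.13 and cyclic loess at 0.00, so directions close to these medians are not read as changes. Without a size limit the replicate 1 array lay above both others in both groups in 3631 rows (25%) and below them in 6564 rows (45.1%). The median difference was 1.49 for shared higher and -1.14 for shared lower rows. Just inside the limit lay LOC645863 and LOC100133747, both at -1.0002, and just outside it SCARA3 at -0.9998 and GOLIM4 at 0.9996. All 6 arrays were above background in 1433 of the shared higher and 506 of the shared lower rows, and in 31 shared lower rows no replicate 1 array was. The detection rule cannot admit the mirror case, a row seen only on the 2 replicate 1 arrays.

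SOX10, CDH6, FOXA1, MCM6 and RPL22 had been set as markers of the split. SOX10, a transcription factor of neural crest and Schwann cell precursors, was at 12.69 on IsO 1, against 10.02 on IsO 2 and 9.92 on IsO 3, and at 10.41 on Control 1, against 9.06 on Control 2 and 8.13 on Control 3. CDH6, a cadherin of neural crest and of some epithelia, was at 10.64 on IsO 1, against 7.44 and 7.09 on IsO 2 and 3. It was at 8.46 on Control 1, against 7.13 and 6.76 on Control 2 and 3. For both genes the replicate 1 array was the highest of its group, by 2.27 ± 0.32 for SOX10 and 2.44 ± 0.41 for CDH6. The IsO gap was the wider for both, at 2.72 against 1.82 in the control group for SOX10 and 3.37 against 1.51 for CDH6.

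FOXA1, a pioneer factor of floor plate and endoderm, went the other way. It was at 5.93 on IsO 1, against 8.84 and 9.18 on IsO 2 and 3, and at 7.30 on Control 1, against 8.18 and 7.53 on Control 2 and 3. The difference was -3.08 in the IsO group and -0.55 in the control group, where Control 1 and Control 3 were close. MCM6, a subunit of the helicase that opens DNA for replication, was at 13.19 on IsO 1, against 10.53 and 10.14 on IsO 2 and 3, and at 12.75 on Control 1, against 10.24 and 10.60 on Control 2 and 3. RPL22, a protein of the large ribosomal subunit, was at 12.39 on IsO 1, against 10.48 and 10.43 on IsO 2 and 3, and at 11.97 on Control 1, against 10.14 and 10.20 on Control 2 and 3. These 2 genes differed by similar amounts in both groups, by 2.59 ± 0.20 for MCM6 and 1.87 ± 0.12 for RPL22, and the replicate 1 arrays did not overlap with the others in either.

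**Figure D2:**
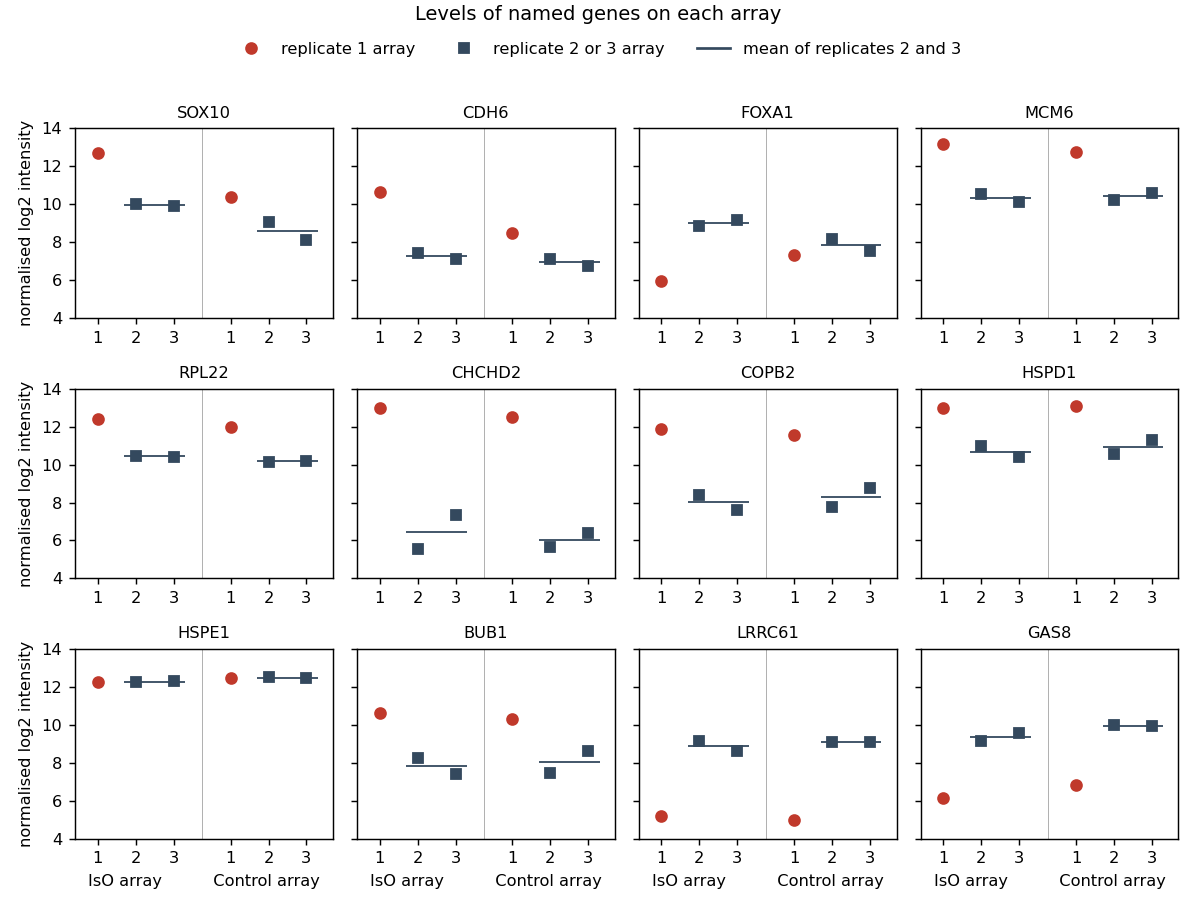
Normalised log2 intensity of 12 genes on each array, IsO arrays left and control arrays right; red circles are replicate 1 arrays, dark squares arrays 2 and 3, and bars the mean of arrays 2 and 3. SOX10, CDH6, MCM6, RPL22, CHCHD2, COPB2, HSPD1 and BUB1 stand above both other arrays in both groups, FOXA1, LRRC61 and GAS8 below, and HSPE1 is level.

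The 12 matched rows with the highest differences included genes of mitochondria, vesicle coats, splicing and protein turnover. CHCHD2 was at 12.97 on IsO 1, against 5.55 and 7.35 on IsO 2 and 3, and at 12.51 on Control 1, against 5.65 and 6.39 on Control 2 and 3. It was above background on 2 of the 4 arrays numbered 2 and 3, so its difference of 6.51 ± 0.50 includes values at background. A second row, CHCHD9, is now named CHCHD2P9, a pseudogene of CHCHD2 with near-identical sequence, and its difference of 3.95 is uncertain because both rows may read the same RNA. COPB2, a coat protein of vesicles that move between Golgi and endoplasmic reticulum, was at 11.89 on IsO 1, against 8.41 and 7.63 on IsO 2 and 3, and at 11.56 on Control 1, against 7.77 and 8.78 on Control 2 and 3. Its difference was 3.58 ± 0.36.

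ATF6, a sensor of unfolded protein in the endoplasmic reticulum, differed by 3.44 and was above background on 1 of the 4 other arrays. RNA handling was represented by CDC5L (3.24) and PLRG1 (3.06), parts of a complex that activates the spliceosome, and by the helicases DDX18 (3.23) and DDX5 (3.19). GTF3C3 (3.18) belongs to the factor that recruits RNA polymerase III, CCT2 (3.17) to a protein-folding ring, PSMD1 (3.14) to the regulatory cap of the proteasome and GNL2 (3.10) to ribosome assembly in the nucleolus. The replicate 1 array exceeded both others in both groups for all 12, as the rule requires.

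At the low end, LRRC61 was at 5.19 on IsO 1, against 9.16 and 8.62 on IsO 2 and 3, and at 5.01 on Control 1, against 9.12 on Control 2 and 9.12 on Control 3. Neither replicate 1 array was above background, and the gene was at least 9.86-fold lower there. GAS8, now DRC4, a part of the regulatory complex of motile cilia, differed by -3.17 ± 0.15, with 6.17 on IsO 1 against 9.16 and 9.58 on IsO 2 and 3, and 6.83 on Control 1 against 9.99 and 9.94 on Control 2 and 3. CTSF, a lysosomal protease, differed by -3.06, and MX2, an interferon-induced GTPase, by -2.91. MX2 was above background on 1 of the 2 replicate 1 arrays, so its difference includes a value at background. GALNT14, which starts O-linked sugar chains, was at least 4.50-fold lower, with no replicate 1 array above background.

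The other 7 of the 12 lowest differences were those of SNORD52, FAM107A, MST1, PLCH2, SLC25A34, LCAT and MIR25, between -2.12 and -1.93. SNORD52, named for a nucleolar RNA that guides methylation of ribosomal RNA, was at least 3.41-fold lower. LCAT, an enzyme that esterifies cholesterol in plasma lipoproteins, was at 5.81 on IsO 1, against 7.21 and 7.75 on IsO 2 and 3, and at 6.14 on Control 1, against 8.35 and 8.38 on Control 2 and 3. MIR25 was at 5.34 on IsO 1, against 6.77 and 6.82 on IsO 2 and 3, and at 5.60 on Control 1, against 7.85 and 8.16 on Control 2 and 3, at least 3.24-fold lower with no replicate 1 array above background. MIR92A2, whose mature microRNA has the seed of miR-25 printed above, differed by -1.42. These were the 2 shared lower rows among 40 tested microRNA rows, beside 3.94% of all rows. Neither was shared without background correction or with the background from all rows. The row named MIR599 was shared higher, at 1.90. RefSeq holds 7 genes whose mature microRNA has that seed, of which 6 had a row and these 2 were tested. Whether such rows read the precursor, the mature microRNA or a host transcript is not given in the sources used here.

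Cell type lists describe how the mixture of markers differed between arrays. Of the neural crest and Schwann cell precursor list, 15 of 24 members were tested. Of these, 5 were shared higher (33.3%) and none shared lower, beside 12.2% and 3.94% of all rows. SOX10 and CDH6, set beforehand as markers of the split, are among these 5, so share and median partly restate that choice. The median difference of the list was 0.49, positive under all 4 other scalings and background settings, beside -0.20 for all rows. With the background from all rows, which raises the floor, 1 member was shared higher. The mean level of the list was 9.15 on IsO 1, against 7.90 and 8.15 on IsO 2 and 3, and 7.99 on Control 1, against 7.61 and 7.42 on Control 2 and 3. CDH19, HAND2, MITF, S100B and SNAI1 were not above background on any array, and FOXD3 and RXRG on 1 replicate 1 array alone. EDNRB, an endothelin receptor of crest cells, and TFAP2B, a transcription factor, reached the signal of detected rows on 6 and 4 arrays, but their detection p-values did not pass on 3 arrays and they were not tested. ERBB3, a neuregulin receptor of crest and Schwann cells picked after its values were seen, differed by 2.12 in the IsO group and by -0.02 in the control group.

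The neuron list had 4 of 18 tested members shared higher and none shared lower, with a median of 0.43, beside 12.2% of all rows shared higher. It was 1 member when the background came from all rows, and 2 with no background correction. STMN2, a tubulin-binding protein of growing axons, was at 11.59 on IsO 1, against 8.89 and 8.25 on IsO 2 and 3, and at 9.17 on Control 1, against 7.17 and 7.56 on Control 2 and 3. ISL1, a transcription factor of motor and sensory neurons, differed by 1.85, with 2 of the 4 arrays numbered 2 and 3 above background. NEFM, a neurofilament, differed by 1.10. Members of the neuron list that were not shared ran from INA at 0.88 to MYT1 at -0.77. Among them TUBB3 was at -0.29, STMN4 at -0.31 and NEUROG2 at -0.43. Neural progenitor markers lay on both sides. The list's median was -0.29, beside -0.20 for all rows. Of 16 tested, 4 were shared higher, or 2 with the background from all rows. Among them were PROM1, a membrane protein of progenitors, at 2.00 and SLC1A3, a glial glutamate transporter, at 1.89. SOX21 was shared lower at -1.42. Not shared were NES and HES5, both at -0.70, SOX3 at -0.61, SOX2 at -0.21, FABP7 at 0.75 and VIM at 0.10.

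Markers of brain regions and of other cell types gave smaller counts. In the list of midbrain, isthmus and hindbrain, 3 of 15 tested genes were shared lower and none shared higher. Of all rows 3.94% were shared lower and 12.2% shared higher. The 3 genes were DMBX1 (-1.30), SP8 (-1.13) and FGF8 (-1.12). FGF8, the signal that the isthmus makes, was at 9.0 on IsO 1, against 10.54 and 10.09 on IsO 2 and 3, and at 8.30 on Control 1, against 9.23 and 9.23 on Control 2 and 3. With cyclic loess none of these 3 stayed among the shared rows. Of 15 forebrain genes OTX2 alone was shared, at 1.42.

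The pluripotency list had 3 of 7 tested members shared higher, which were L1TD1 (2.33), LIN28B (1.73) and USP44 (1.11), beside 12.2% of all rows. With the background from all rows 1 was. The other tested members were not shared: LIN28 differed by -0.14, DPPA4 by -0.06 and DNMT3B by -0.46. ZFP42 differed by 1.05 in the IsO group and by -0.54 in the control group. L1TD1 was above background on 2 of the 4 arrays numbered 2 and 3, so its difference includes values at background, while POU5F1 was above background on 1 replicate 1 array and NANOG on no array. Of the endoderm list 6 of 18 members were tested, and CXCR4 was shared higher at 1.16 and FOXA1 shared lower. SOX17, GATA4 and GATA6 were above background on no array. None of 14 mesenchyme and matrix genes was shared in either direction. The part that cell mixture has in the replicate 1 differences was not tested.

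**Figure D3:**
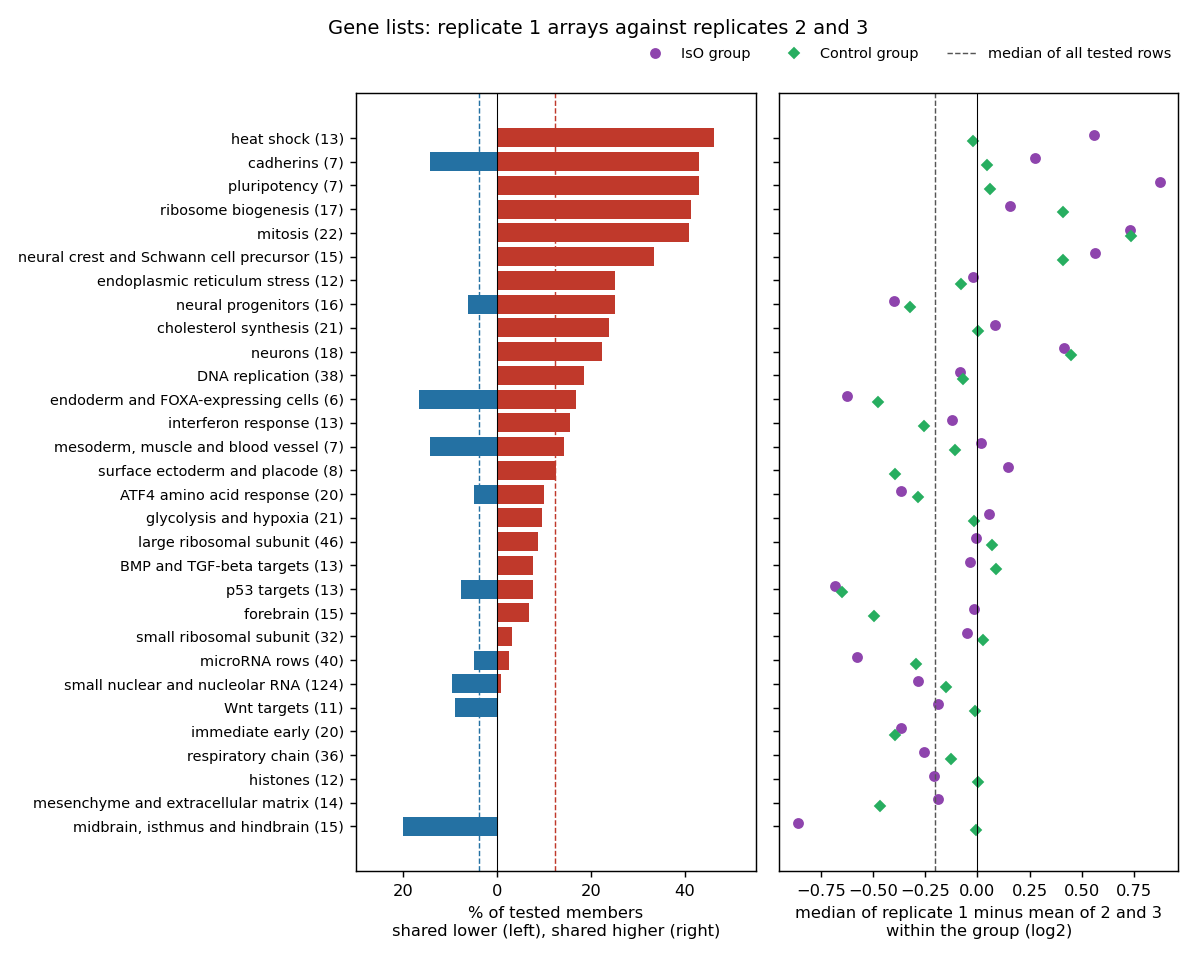
Left, the share of tested members of 30 gene lists that were shared higher (right of 0, red) or shared lower (left of 0, blue), with dashed lines at 12.2% and 3.94% for all rows; right, the list's median difference in log2 units in the IsO group (circles) and the control group (diamonds), with the median of all rows dashed. Numbers in brackets are tested members. Heat shock, cadherin, pluripotency, ribosome biogenesis, mitosis and neural crest lists have the largest higher shares. The cadherin and neural crest lists hold markers that were set for the split.

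Genes of cell division were counted in lists for mitosis, DNA replication and histones. Beside these counts, 12.2% of all rows were shared higher and 3.94% shared lower. Of 22 mitosis genes 9 were shared higher (40.9%) and none shared lower, and the list's median was 0.73, positive under all 4 other scalings and background settings, with 4 genes shared higher with the background from all rows. BUB1, a kinase of the spindle checkpoint, was at 10.61 on IsO 1, against 8.25 and 7.43 on IsO 2 and 3, and at 10.32 on Control 1, against 7.46 and 8.64 on Control 2 and 3. KIF11, a motor that pushes spindle poles apart, differed by 2.28, and NUSAP1, a spindle protein, by 1.98. Mitosis genes that were not shared ran from AURKA at 0.86 to CKS2 at -0.44. Among them CDC20 was at -0.22, PLK1 at -0.29 and CENPA at -0.33, so the list did not move as a set. Of 38 DNA replication genes 7 were shared higher (18.4%), with a median of -0.11 that became 0.08 with cyclic loess. MCM6, set beforehand as a marker of the split, is among these 7. RRM1, a subunit of the enzyme that makes deoxynucleotides, differed by 2.78 and POLA1, the catalytic subunit of primase-polymerase alpha, by 2.13. No histone among 12 was shared.

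Ribosome and protein-folding genes were uneven. Among ribosomal proteins 4 of 46 of the large subunit and 1 of 32 of the small subunit were shared higher, and none was shared lower. Both shares were below the 12.2% of all rows, but the lists are bright, with mean levels of 13.73 and 14.69 on IsO 1. In the brightest of 5 equal classes of rows by mean level, 5.26% were shared higher. The 3 largest differences of the large subunit were those of RPL15 (1.93), RPL22, a marker of the split, and RPL11 (1.48). RPS23 (1.98) was the one of the small subunit. RPL15 and RPL11 were bright on all arrays, at 14.89 and 15.33 on IsO 1. Of 17 ribosome biogenesis factors 7 were shared higher (41.2%), led by WDR12 (2.07), GNL3 (1.94) and NIP7 (1.68), and 2 were with the background from all rows. Heat shock genes had 6 of 13 shared higher (46.2%), led by HSPD1 (2.22), the mitochondrial chaperonin, HSPA8 (2.08) and HSPH1 (1.89), although the list's median was -0.01.

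In the endoplasmic reticulum stress list 3 of 12 were shared higher, HSP90B1 (1.93), DNAJB9 (1.68) and HSPA5 (1.04), which fold or recover proteins there, beside 12.2% of all rows shared higher and 3.94% shared lower. The count was 1 with the background from all rows. Cholesterol synthesis had 5 of 21 shared higher, among them HMGCS1 (1.99), an early enzyme of the pathway, and SC5DL (1.82). The amino acid response list had CEBPG (2.17) and MTHFD2 (1.91) shared higher and SESN2 (-1.07) shared lower among 20. Adhesion genes of the cadherin family, 7 tested, had CDH6, CDH11 (1.32) and CDH2 (1.27) shared higher. Of these, CDH6 had been set as a marker of the split. CDH24, picked after its values were seen and barely past the limit, was shared lower. No cadherin was shared lower under the 4 other scalings and background settings.

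The medians of the p53 target and immediate early lists lay below the -0.20 of all rows. The median was -0.56 for 13 p53 targets, of which 10 lay below both other arrays in both groups, and -0.49 for 20 immediate early genes, of which 11 did so, beside 45.1% of all rows. In the p53 list 1 gene was shared lower and 1 higher. PHLDA3, a p53 target that restrains AKT, differed by -1.10, and SESN1, a p53 target that restrains growth signalling, by 1.06. Without IsO 3 both counts were 0, and without Control 3 the higher one was. JUN, a subunit of the AP-1 factor, differed by -0.97 and was not shared. Of 36 respiratory chain genes 29 lay below both other arrays in both groups, by small amounts with a median of -0.20, equal to that of all rows, and none was shared. Among 124 rows for small nuclear and nucleolar RNAs 12 were shared lower (9.68%) and 1 higher, beside 3.94% and 12.2% of all rows. The lower ones were led by SNORD52, SNORD35B (-1.89) and SNORA61 (-1.39). The lower count was 6 without IsO 3, 4 without background correction, 5 with median scaling, 2 with cyclic loess and 0 with the background from all rows. The medians of the p53, immediate early and respiratory lists stayed negative under all 4 other scalings and background settings. That of the small RNA list was -0.20, like that of all rows, and became 0.02 with cyclic loess.

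Subunits of one complex differed from each other. The genes compared here were picked after their values were seen. MCM6 stood 2.59 higher, while MCM2, MCM3, MCM4, MCM5 and MCM7, which form the ring with it, differed by -0.41 to -0.09. MCM3 and MCM5 turned to slightly positive values with cyclic loess, at 0.04 and 0.03. MCM2 was at 13.05 on IsO 1, against 13.54 and 13.70 on IsO 2 and 3, and at 13.38 on Control 1, against 13.55 and 13.71 on Control 2 and 3. POLR2B, the second-largest subunit of RNA polymerase II, was at 10.20 on IsO 1, against 7.16 and 6.28 on IsO 2 and 3, and at 9.57 on Control 1, against 7.02 and 7.59 on Control 2 and 3. The other 11 tested subunits differed by -0.83 to -0.08. Of the 12, 10 lay below both other arrays in both groups, beside 45.1% of all rows. POLR2I became 0.02 with cyclic loess. Of the 8 CCT chaperonin subunits 6 were shared higher, at 1.12 to 3.17, beside 12.2% of all rows, while CCT3 was at 0.24 and CCT7 at -0.04.

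HSPD1 and HSPE1 are neighbours on chromosome 2 that run in opposite directions, and their products form the chaperonin barrel of mitochondria and its lid. HSPD1 was at 12.99 on IsO 1, against 10.97 and 10.42 on IsO 2 and 3, and at 13.10 on Control 1, against 10.58 and 11.33 on Control 2 and 3. HSPE1 was at 12.30 on IsO 1, against 12.25 and 12.34 on IsO 2 and 3, and at 12.48 on Control 1, against 12.53 and 12.46 on Control 2 and 3. HSPD1 stood above both other arrays in both groups, and HSPE1 was level, at -0.01, or 0.13 with cyclic loess. The RefSeq promoter window of HSPE1 at chr2:197500129-197500428 on the plus strand of GRCh38.p14 overlaps that of HSPD1 and is printed with its CG dinucleotides, 35 in number, in capitals.
HSPE1: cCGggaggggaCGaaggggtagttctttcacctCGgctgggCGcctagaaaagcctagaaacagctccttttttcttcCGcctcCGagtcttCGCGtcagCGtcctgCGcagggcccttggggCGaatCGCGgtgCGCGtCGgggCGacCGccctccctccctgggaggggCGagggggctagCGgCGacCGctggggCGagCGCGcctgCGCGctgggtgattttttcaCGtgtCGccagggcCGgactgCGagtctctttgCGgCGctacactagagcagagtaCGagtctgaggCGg

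**Figure D4:**
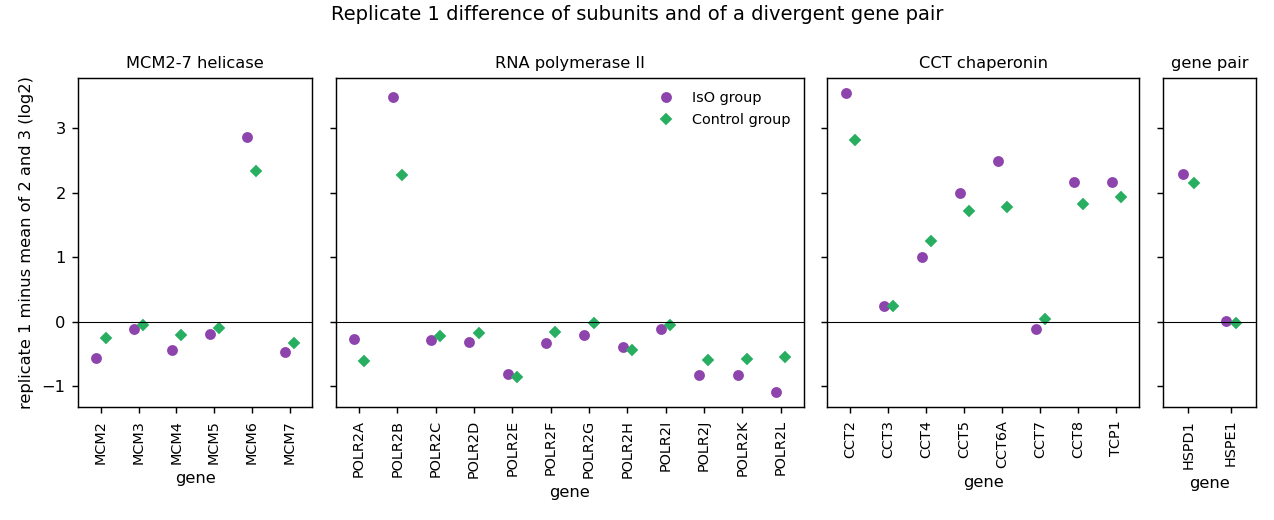
Difference between array 1 and the mean of arrays 2 and 3 in log2 units, for the IsO group (circles) and the control group (diamonds), of subunits of the MCM helicase, RNA polymerase II and the CCT chaperonin and of the pair HSPD1 and HSPE1. MCM6, POLR2B, HSPD1 and 6 CCT subunits stand at 1.00 or above in both groups, and the others lie between -1.09 and 0.24.

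Gene span and mean level were looked up for the shared rows as a description. A gene span could be taken from RefSeq for 10946 of the 14548 rows (75.2%), for 91.6% of shared higher and 78.4% of shared lower rows. Fewer than 80% of all rows and of shared lower rows had one. A comparison of those sets by span is therefore void, and the values describe the matched rows alone. Of the 10946 matched rows 1626 were shared higher. Shares by span or chromosome refer to matched rows and are not set against the share among all rows. Split into 5 classes of equal size by span, 3.88% of the class with the shortest genes were shared higher, then 9.41%, 15.6% and 22.4%, and 23% of the class with the longest. Over 23 chromosomes the median difference correlated with the median gene span at r = 0.831 (Spearman 0.779), where all points share the 6 arrays. Over the 10946 rows themselves the relation to log10 span was much looser, at r = 0.233 (Spearman 0.241). Chromosome 13 had the highest median, 0.37, with 53 of 169 rows shared higher (31.4%), and chromosome 22 the lowest, -0.45, with 9 of 288 (3.12%). The share also varied with the mean level of the row, at 5.05% in the dimmest of 5 such classes, 19.8% in the middle one and 5.26% in the brightest. A promoter window was found for 59.4% of the rows, so a check of promoter GC content or motifs is void. The part of gene span or level in the replicate 1 differences was not tested.

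**Figure D5:**
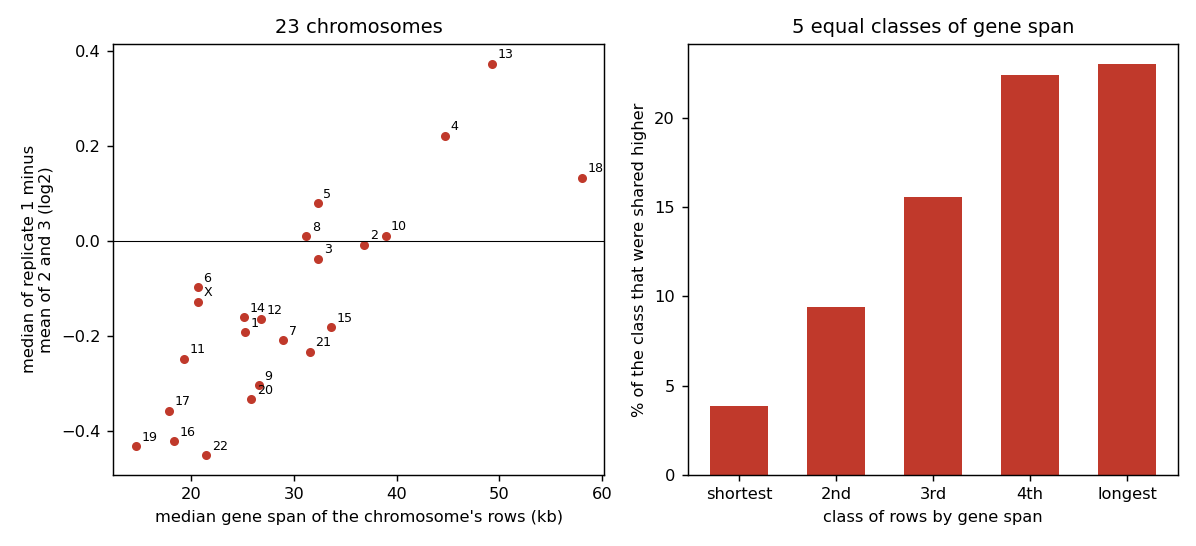
Left, the median difference between replicate 1 and the other arrays in log2 units against the median gene span in kilobases, 1 point for each of 23 chromosomes, labelled by number; right, the percentage of rows that were shared higher in each of 5 equal classes of matched rows by gene span. Chromosome 13 lies at the top at 0.37 and chromosome 22 at the bottom at -0.45, and the share is 3.88% in the shortest class and 23% in the longest class.

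Whether the replicate 1 difference was unequal in the IsO and control groups was tested with limma's interaction term, which is independent of the mean difference. No row was called at an adjusted p below 0.05, and 585 rows (4.02%) had an unadjusted p below 0.05. For FOXA1 the IsO difference minus the control difference was -2.53 ± 0.48, for CDH6 1.86 ± 0.37 and for ERBB3 2.14, each with an adjusted p of 0.999 from limma. Each group holds only 1 replicate 1 array, so the interaction test has little power, and the absence of calls does not show equal differences. Replicate 2 against replicate 3, a contrast that the split did not use, was also tested with limma. Again no row was called, with 673 rows (4.63%) at an unadjusted p below 0.05. The difference between arrays 2 and 3 in the IsO group correlated across rows with that in the control group at r = -0.13. With trended and robust moderation both counts were 0 as well.

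The replicate 1 arrays bear on how many treatment differences pass the test. IsO against control, fitted by limma on all 6 arrays with no covariate, called 191 rows (1.31%), 118 higher (0.811%) and 73 lower (0.502%) in IsO cells. With the replicate number as a block it called 800 rows (5.5%), 453 higher (3.11%) and 347 lower (2.39%). With a term for replicate 1 alone it called 1209 rows (8.31%), 636 higher (4.37%) and 573 lower (3.94%). This term was chosen because these same intensities showed the split, so a rise in calls with it was built in. Calls with the term or the block are given as a description. All 191 rows were among those called in each of the other fits. Of the shared higher rows 1 was called without covariate (0.0563%) and 99 with the replicate 1 term (5.58%), and of the shared lower rows 2 (0.349%) and 88 (15.4%). The 3 called without covariate were NEFM, higher in IsO cells, and CCKBR and IGFBP3, lower.

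For SOX10 IsO minus control was 1.68 ± 0.89 without covariate (limma adjusted p = 0.682), and the adjusted p was 0.0391 with the replicate block. The same difference was 2.28 between the replicate 1 arrays, 0.97 between replicate 2 and 1.79 between replicate 3 arrays. The labels do not pair arrays 2 and 3 across groups, so adjusted p-values with the block are given as a description. ISL1 differed by 2.09 ± 0.76 (adjusted p = 0.396, and 0.0374 with the block). FGF8 differed by 0.96 ± 0.46 (limma adjusted p = 0.611, and 0.0445 with the block), and IsO was higher at each replicate number. FOXA1 had 0.32 ± 0.84, with -1.37 between replicate 1 arrays, 0.67 between replicate 2 and 1.65 between replicate 3 arrays, and was not called in either fit (adjusted p = 0.982, and 0.778 with the block). MCM6 and RPL22 were not called either, at 0.09 ± 0.98 and 0.32 ± 0.70. In the neuron list 5 of 18 genes were called without covariate and 12 with the replicate 1 term. In the crest list these counts were 2 and 6 of 15, beside 1.31% and 8.31% of all rows. Counts with this term are a description, since it was chosen from the same intensities. Of 22 mitosis genes none was called in either fit.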

How the data were processed

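RNA of 3 IsO and 3 control samples was hybridised to Illumina bead arrays. The authors deposited, per the file headers, a linear intensity and a detection p-value per row and array, with no background subtracted; the submitters' processing notes name GenomeStudio 2011.1. The deposited series matrix holds log2 intensities of 34685 rows, within 0.00754 of quantile-normalised intensities without background correction, and served as an alternative. By the steps of the detection p-values 27322 rows held 1 probe and 7370 several. The background mean (122 to 132) and SD (19.8 to 23.2) of each array were estimated from the detection p-values of 1-probe rows; normexp correction with an offset of 16, quantile normalisation and log2 followed (limma 3.58.1, R 4.3.3). Tests used lmFit and eBayes with Benjamini-Hochberg adjustment over all 14548 rows and were tested on simulated data. A bound sets the brighter side's mean against the higher of the dim value and the lowest detected 1-probe value. The number of arrays limits the precision. Of all 34692 rows 17761 matched a current and 3305 an older RefSeq symbol (GRCh38.p14); the array's own build is not given in the sources used here.

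Members, 30 gene lists and tests were chosen with earlier results of these data known, and 13 families after the values were seen. Genes named are the 5 markers, the 12 highest and 12 lowest shared rows with a matched symbol, and the 3 largest differences of each list, of which some members are not reported here; others are said to be picked later. Same-numbered arrays deviated together from their group means (r = 0.868, 0.390 and 0.649 for numbers 1, 2 and 3). On this evidence alone the numbers were used as a block. Deviations within a group balance out, so a shift of array 1 also moves arrays 2 and 3 together across groups. The values for numbers 2 and 3 therefore cannot show pairing. Control 2 correlated more with IsO 3, at 0.694, and Control 3 with IsO 2 at 0.479.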

Additional observations from a re-analysis of the deposited data

How the results depend on the processing

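Leaving out IsO 2, IsO 3, Control 2 or Control 3 gave 1552 to 1948 higher and 436 to 737 lower shared rows; without a replicate 1 array no shared count and no interaction can be had. Higher rows numbered 1019 without background correction, 425 with the background from all rows, 1015 on the series matrix values and 2685 at 1.5-fold. Lower rows numbered 114, 51, 115 and 2848 under these settings, 250 with median scaling, 143 with cyclic loess, 253 with an offset of 50, and 275 where each group had to differ by 1 log2 unit. IsO against control called 101 rows with the background from all rows, 310 with cyclic loess, 81 for rows detected on all 6 arrays, 347 on arrays 2 and 3 alone (157 of them among the 191), 800 with the replicate block and 1209 with the replicate 1 term. Leaving out 1 array it called 40 to 163, with 40 without IsO 2, 43 without Control 3, 47 without Control 2, 58 without IsO 3 and 128 without Control 1. The use of replicate numbers as a block was read from the intensities, which cannot show pairing of arrays 2 and 3. The block changed no other call than the treatment calls given. The replicate 2 against 3 and interaction counts were 0 under all 17 and 14 alternatives. No shared gene named by the rule changed sign. The cause of these shifts was not tested. Dim rows are limited by signal over background: 1243 rows were detected on exactly 3 arrays and 1710, not used, on 2.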

Other observations

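Gene families picked after their values were seen, and so with no weight as evidence, are given as counts. Of 19 aminoacyl-tRNA synthetases, which load amino acids on tRNA, 7 were shared higher and none lower, with TARS at 2.89, LARS at 2.64 and DARS at 2.53. Of 8 COPI coat genes 4 were shared higher, of 20 nuclear pore genes 8 higher and 1 lower, of 19 heterogeneous nuclear ribonucleoproteins 8 higher, and of 40 DEAD/DEAH-box helicases 14 higher and 1 lower. Eukaryotic initiation factors had 12 of 51 higher, vacuolar protein sorting genes 8 of 28, proteasome genes 7 of 36 and the CHCHD family 3 of 10, none lower. The 310 tested zinc finger (ZNF) genes had 83 higher (26.8%) and 5 lower, and the 74 mitochondrial ribosome genes 6 higher (8.11%) and none lower, beside 12.2% and 3.94% of all rows.

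In signalling and stress lists the counts were small, and shares of so few genes are not read against the 12.2% higher and 3.94% lower of all rows. Of 21 glycolysis and hypoxia genes 2 were shared higher, of 13 interferon response genes 2, among them IFIT1 at 1.10, of 13 BMP and TGF-beta targets 1, of 8 surface ectoderm and placode genes 1, TFAP2C at 1.38. Of 11 Wnt targets 1 was shared lower. Of 7 mesoderm, muscle and blood vessel genes TEK was shared higher at 1.32 and FOXC2 shared lower at -1.06.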
